A study of Danio rerio with 80 samples.

Results

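Brains of adult zebrafish exposed early in development to a low dose of a pollutant mixture (POP10) were studied. They were compared with brains of fish exposed only to perfluorooctane sulfonic acid (PFOS), at the amount that mixture holds (PFOS10). The comparison takes in 32 of the 80 fish of the study, chosen by the condition and sex in the sample labels, with 8 females and 8 males per exposure. It asks what the other chemicals of the mixture add to PFOS at the low level.

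All fish were wild type of the AB strain, and RNA was read from whole brains taken from single fish. Fish were exposed from 6 to 96 hours after fertilisation, a span that starts in the embryo, and then raised in clean water. The solvent was 0.1% dimethyl sulfoxide (DMSO), which control fish received alone. POP10 stood for 10 times the levels found in human blood and PFOS10 for 0.3 mg/L PFOS. The high-level pair, used here only for comparison, were the mixture at 70 times blood levels (POP70) and PFOS at 2.06 mg/L (PFOS70). Each condition had 4 exposure replicates, numbered 3 to 6, that gave 2 females and 2 males each. The number also set the age at sampling, 240 days for number 3, 233 for number 4, 226 for number 5 and 219 for number 6. The 4 fish of an exposure replicate shared 1 exposure. The tests below therefore weigh differences against the spread from fish to fish, not between separate exposures.

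Persistent organic pollutants are long-lived chemicals, many of which gather in fatty tissue. As a class they take in chlorinated pesticides and biphenyls, brominated flame retardants and fluorinated surfactants such as PFOS, and the labels do not list which of these the mixture held. Dioxin-like members bind the aryl hydrocarbon receptor, which switches on cytochrome P450 genes of the Cyp1 family. PFOS is known to act on fatty acid receptors (PPARs) and on thyroid hormone transport. Immediate-early genes such as egr1 and npas4a code for factors that neurons switch on within minutes of activity.

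Sequencing depth, worked back from the deposited values, was between 9.01 and 16.6 Mreads (1 Mread is 1000000 reads) in the 32 libraries. A gene at 10 reads per Mread (RPM) had 71.2 to 120 reads behind it. Levels below are log2 RPM on the deposited scale, and 10646 genes with a mean of at least 10 RPM over the 80 libraries were tested. The synaptic gene snap25a lay between 5236 and 8431 RPM in these brains, the myelin gene mbpa between 3564 and 13096 RPM and the radial glia gene gfap between 29.1 and 71.9 RPM. Growth hormone (gh1), a pituitary marker, had no read in 15 of 16 POP10 and 16 of 16 PFOS10 libraries. The pituitary markers prl and pomca had reads in every library of both exposures. In total prl had 213 reads in POP10 and 232 in PFOS10, and pomca 1439 and 1693. In bulk tissue, fewer cells of a type and less RNA per cell cannot be told apart. No pair of the 32 libraries agreed within sampling noise.

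No gene passed the threshold between the mixture and PFOS alone. Of 10646 tested genes 0 (0%) passed an adjusted p of 0.05 over both sexes (limma, two-sided, Benjamini-Hochberg), and the smallest adjusted p was 0.679. An unadjusted p under 0.05 was found for 701 genes (6.58%), 183 higher (1.72%) and 518 lower (4.87%) in POP10. The fit behind these counts treated fish of 1 exposure replicate as independent. With their correlation of 0.238 taken into the fit, limma called 0 genes. It then left 136 genes at an unadjusted p under 0.05, of which 25 were higher in POP10. limma's voom on the recovered reads also called 0 genes, with 746 at an unadjusted p under 0.05. In females alone limma called 0 genes, with 340 (3.19%) at an unadjusted p under 0.05, and in males 0, with 501 (4.71%). The interaction with sex called 0 genes in limma, with 158 (1.48%) at an unadjusted p under 0.05.

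The intervals bound the differences closely for most genes. The estimate lay within 1.5-fold for 97.7% of the genes, and the median size of the difference was 0.0748 on the log2 scale. The 95% confidence interval lay wholly within 1.5-fold for 8870 genes (83.3%) and within 2-fold for 9896 (93%). With the correlation of 0.238 between fish of 1 exposure replicate taken into the fit, these were 8337 (78.3%) and 9570 (89.9%). Standard errors and intervals of single genes below come from the fit without that correlation. An estimate beyond 2-fold was found for 41 genes, 18 higher and 23 lower in POP10, and none of them passed.

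**Figure D1:**
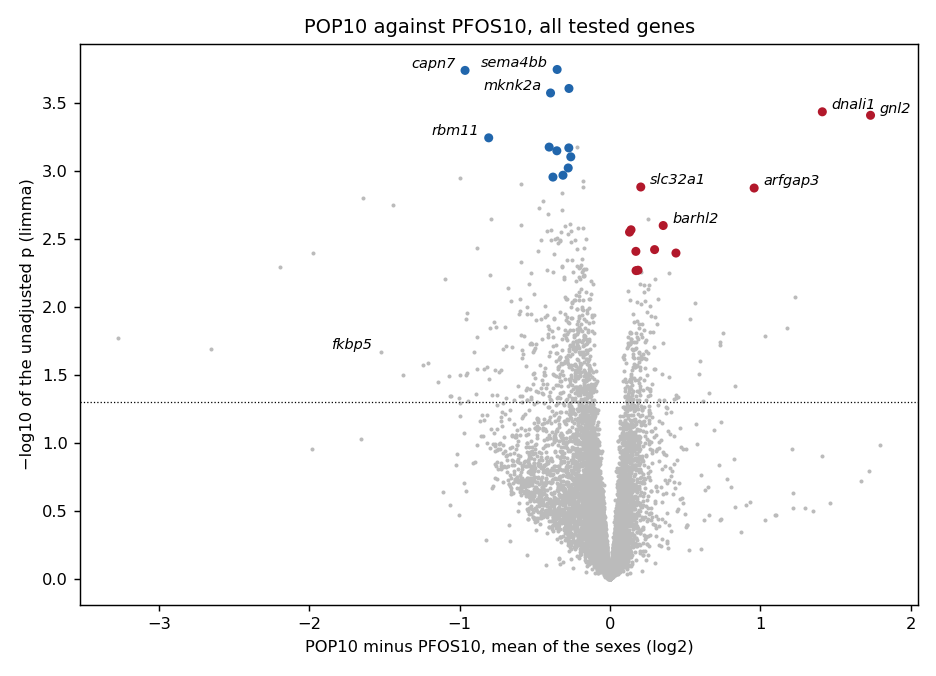
Difference between POP10 and PFOS10 (x axis, log2, mean of the sexes) against −log10 of the unadjusted limma p (y axis) for 10646 genes. Each point is 1 gene, and the dotted line marks an unadjusted limma p of 0.05. Coloured points are 24 genes without clone names and with the same direction in both sexes. They are the 12 higher (red) and the 12 lower (blue) in POP10 of smallest p. More points above the line lie on the left (518) than on the right (183).

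The means of 3876 genes (36.4%) were higher and those of 6770 (63.6%) lower in POP10, with a median difference of -0.03. Under quantile normalization the median was 0.02, and 578 of the 909 genes at an unadjusted p under 0.05 were higher. Library make-up was measured by the first principal component over the 80 libraries, which takes up 39.3% of their variance. It averaged -0.03 ± 0.81 (SD, n = 16) in POP10, 0.39 ± 1.08 in PFOS10 and -0.34 ± 0.85 in control. POP10 brains had 10370 ± 440 genes at 10 RPM or more and PFOS10 brains 10713 ± 646 (SD, n = 16). Over 4 exposure replicates a condition the exact two-sided permutation p was 0.4 for the component and 0.229 for the number of genes, and 4 against 4 cannot go below 0.0286. With the component as a covariate 4876 of the 10646 genes were higher in POP10. The part of library make-up in single differences was not tested.

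The gene of smallest p was sema4bb, which codes for a membrane semaphorin, of the family that guides axons (ENSDARG00000076104, chromosome 7 from 30240791 to 30267169 on GRCz11, plus strand). Its levels ran from 3.78 to 4.70 with a median of 4.34 in POP10, and from 4.13 to 5.07 with a median of 4.73 in PFOS10. The means of exposure replicates 3 to 6 were 4.15, 4.39, 4.36 and 4.36 in POP10 and 4.57, 4.71, 4.69 and 4.70 in PFOS10. These means did not overlap, while single fish did. The difference was -0.35 ± 0.09 (SE) with a 95% interval of -0.53 to -0.17 and an adjusted p of 0.679 (limma). Control fish, at 4.53 ± 0.18 (SD, n = 16), had a mean between those of the exposures.

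Over all genes, the 4 exposure replicates of POP10 all lay above those of PFOS10 for 44 genes (0.413%) and all below for 97 (0.911%). Either way these were 1.32% of the genes. Were all the means in random order, a share of 0.0286 would lie apart. The 24 leading genes are the 12 higher and 12 lower of smallest p with the same direction in both sexes, without clone names. For 15 of these 24 the exposure replicates lay apart, and since small p chose them this is a description. mknk2a, which codes for a kinase of the cap-binding factor of translation, stood at 5.02 ± 0.32 in POP10 and 5.42 ± 0.31 in PFOS10 (SD, n = 16), with a difference of -0.39 ± 0.10 (SE). Its exposure replicates stood at 5.15, 5.02, 4.87 and 5.04 in POP10 and at 5.53, 5.29, 5.39 and 5.45 in PFOS10, all 4 of the mixture below all 4 of PFOS. The gene of the splicing factor rbm11 stood at 3.39 ± 0.79 in POP10 and 4.196 ± 0.45 in PFOS10, and that of the ubiquitin ligase rnf144ab at 6.68 ± 0.32 in POP10 and 7.09 ± 0.25 in PFOS10. taf2, a subunit of the general transcription factor TFIID, stood at 5.19 ± 0.22 in POP10 and 5.57 ± 0.30 in PFOS10. Exposure replicates of these 3 genes did not overlap either.

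Other leading genes with lower means in POP10 had varied roles. pogzb, which codes for a zinc finger protein of chromatin, differed by -0.27 ± 0.07 (SE) and was lower in 3 of 4 numbers. It passed in limma without number 3 (-0.36, adjusted p 0.0271) and, with taf2, under library weights (adjusted p 0.0352). sinhcaf, for a subunit of a histone deacetylase complex, differed by -0.35 ± 0.10, and ints8, for a subunit of the Integrator complex, by -0.26 ± 0.07. gcfc2, for an RNA splicing factor, differed by -0.28 ± 0.08, and sars2, for the mitochondrial seryl-tRNA synthetase, by -0.27 ± 0.08. These 4 were lower in 4 of 4 numbers, as was nt5dc2 of a nucleotidase family at -0.31 ± 0.09. Since small p and direction chose these genes, that too is a description.

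Among the genes with higher means in POP10, slc32a1, which codes for the vesicular transporter of the inhibitory transmitter GABA, stood at 9.35 ± 0.21 in POP10 and 9.15 ± 0.17 in PFOS10 (SD, n = 16). Its exposure replicates ran from 9.16 to 9.48 in POP10 and from 9.02 to 9.23 in PFOS10, higher in 4 of 4 numbers but overlapping between numbers. The difference was 0.21 ± 0.06 (SE), 1.15-fold, with a 95% interval of 0.08 to 0.33 and an adjusted p of 0.679 (limma). slc6a1b, for a plasma membrane GABA transporter, differed by 0.14 ± 0.06 and was also higher in 4 of 4 numbers. The homeobox gene barhl2 stood at 6.33 ± 0.36 against 5.98 ± 0.33, and its exposure replicates did not overlap. arfgap3, which acts in Golgi transport, had a wide spread, from 4.33 to 7.73 in POP10 and from 4.37 to 6.62 in PFOS10, with a difference of 0.96 ± 0.29.

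The other named genes with higher means did not pass the adjusted threshold either. atf6, a transcription factor of the endoplasmic reticulum stress response, differed by 0.14 ± 0.05 (SE) and the arginine methyltransferase gene carm1 by 0.13 ± 0.04. The SUMO protease gene senp5 differed by 0.30 ± 0.10, the Groucho corepressor gene tle3a by 0.17 ± 0.06 and the homeobox gene pbx3b by 0.19 ± 0.07. meaf6, for a subunit of histone acetyltransferase complexes, differed by 0.17 ± 0.06 and the matrix protein gene aebp1 by 0.44 ± 0.15. Each of these 7 was higher in at least 3 of 4 numbers, a description only, since small p and direction chose them.

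The largest differences among these 24 were in a pair of neighbouring genes. gnl2 codes for a nucleolar GTPase of ribosome assembly (ENSDARG00000098080, chromosome 16 from 33902006 to 33925877 on GRCz11, plus strand), and dnali1 for a chain of ciliary dynein (chromosome 16 from 33925743 to 33930759, minus strand). Their spans share 135 bases, and the counting is not stated to use strand, so reads of the overlap cannot be told apart. gnl2 ran from 4.50 to 8.42 with a median of 7.37 in POP10 and from 4.48 to 7.38 with a median of 4.78 in PFOS10. Its exposure replicates stood at 7.16, 6.65, 7.61 and 6.76 in POP10 and at 5.29, 5.29, 5.45 and 5.23 in PFOS10, with no overlap of these means. gnl2 differed by 1.73 ± 0.47 (SE), 3.33-fold, and dnali1 by 1.41 ± 0.38, 2.66-fold, each with an adjusted p of 0.679 (limma).

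Levels of gnl2 fell into 2 bands in the 80 fish, with none between 5.10 and 6.75, a split noticed after the values were seen. The upper band held 13 of 16 POP10 fish and 4 of 16 PFOS10 fish, against 6 of 16 control, 5 of 16 POP70 and 5 of 16 PFOS70 fish. In POP10 it held 3 of 4 fish of numbers 3, 4 and 6 and 4 of 4 of number 5, and in PFOS10 1 of 4 fish of each number. In control it held 0 of 4 fish of number 3, 1 of number 4, 4 of number 5 and 1 of number 6. The cause of the 2 bands was not tested.

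capn7, which codes for a calpain protease, lies on the same chromosome (16 from 36167907 to 36196700, minus strand) and had the second smallest p, with a difference of -0.96 ± 0.24 (SE). Its levels ran from -0.26 to 4.61 with a median of 3.88 in POP10 and from 3.66 to 4.97 with a median of 4.67 in PFOS10. Its exposure replicates did not overlap, and 2 POP10 fish stood far below the rest. The lowest was a female of number 4 at -0.26, with gnl2 at 8.28, and the next a male of number 5 at 1.84, with gnl2 at 8.42. The 3 POP10 fish in the lower band of gnl2 had the 3 highest capn7 levels of that exposure, 4.61, 4.53 and 4.43.

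Of the 100 genes of smallest p, 12 lay on chromosome 16, which holds 470 (4.41%) of the tested genes. This chromosome was singled out after its genes were seen to lead, and chromosome 4 gave 10 of the 100 from fewer tested genes, 371 (3.48%). Those on chromosome 16 were capn7, pogzb, dnali1, gnl2, taf2, ascc3, leng8, tcaim, gapdh, sybu, rbm12b and 1 gene with a clone name. Of these 12 genes 10 were lower in POP10, near the share over all 100, of which 82 were lower. The 12 genes ran from 1504280 at ascc3 to 39168840 at sybu, but not evenly. gnl2, dnali1, capn7, pogzb and sybu lay between 33902006 and 39168840. gapdh and the gene with a clone name lay between 17189839 and 17207754, with rbm12b near them at 16232621. Whether they group more closely than other tested genes was not tested. ascc3, which codes for a helicase of DNA repair, differed by -0.998 ± 0.29 (SE) and gapdh, for an enzyme of glycolysis, by -0.89 ± 0.30.

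**Figure D2:**
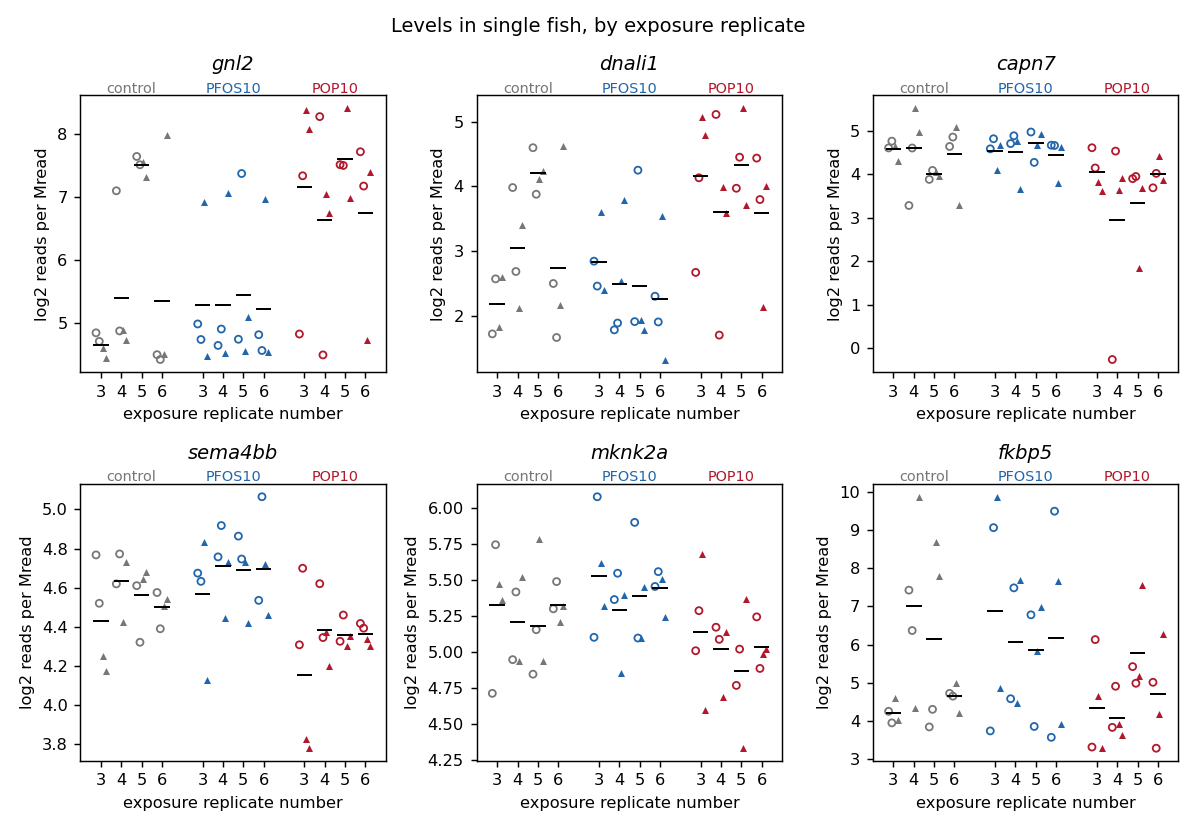
Levels (y axis, log2 RPM) of 6 genes in single fish of control, PFOS10 and POP10, by exposure replicate number (x axis). Open circles are females, triangles are males and bars are means of 4 fish. gnl2 falls into 2 bands, with 13 of 16 POP10 and 4 of 16 PFOS10 fish in the upper one, while fkbp5 reaches 9.88 in PFOS10 and 7.56 in POP10.

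No immediate-early gene passed the threshold between the exposures, and ier2a had a wider spread in POP10 than in PFOS10. ier2a, for a small nuclear protein of this class, stood at 5.29 ± 0.86 in POP10 and 5.30 ± 0.30 in PFOS10 (SD, n = 16), with a difference of -0.00 ± 0.22 (SE) and a 95% interval of -0.45 to 0.44. The means of exposure replicates 3 to 6 were 5.66, 4.61, 6.17 and 4.72 in POP10 and 5.32, 5.26, 5.39 and 5.21 in PFOS10. All 4 POP10 fish of number 5 lay above all 16 PFOS10 fish, and a POP10 fish of number 4 was the lowest of the 32. The SD over fish of 1 sex was 2.9 times as large in POP10, a ratio above that of 99.6% of the tested genes. This SD takes in the spread between exposure replicates as well as that between their fish. Control fish also had a wide spread of ier2a, from 3.28 to 6.01. POP10 fish ran from 4.135 to 7.17 and PFOS10 fish, the narrowest group, from 4.98 to 5.96. Over all genes the median ratio was 1.09, and 59.5% had the larger SD in POP10.

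npas4a, an activity-dependent transcription factor, had a difference of -0.11 ± 0.33 (SE, 95% interval -0.76 to 0.55) and an SD ratio of 1.62. Its exposure replicates stood at 8.05, 6.27, 8.85 and 6.99 in POP10 and at 8.01, 7.50, 7.69 and 7.39 in PFOS10. The highest npas4a level of each exposure came from a fish of number 3, a POP10 female at 10.71 and a PFOS10 male at 10.25. The orphan nuclear receptor gene nr4a1 differed by -0.20 ± 0.35, with exposure replicates from 2.27 to 4.38 in POP10 and from 3.33 to 4.34 in PFOS10. egr1, for a zinc finger factor, stood at 9.55 ± 0.41 in POP10 and 9.32 ± 0.34 in PFOS10 (SD, n = 16), higher in 4 of 4 numbers. Its difference of 0.22 ± 0.12 (SE) had a 95% interval of -0.02 to 0.47 and an adjusted p of 0.763 (limma).

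Of the 33 tested genes of the immediate-early list, 13 were higher and 20 lower in POP10, where 63.6% of all genes were lower. The list median was -0.04 against -0.03 over all genes. The median was 0.06 in females and -0.17 in males, and whether these differ was tested only gene by gene. By number the list median was 0.10, -0.26, 0.15 and 0.09 for 3 to 6. The sign of the list median over both sexes turned without number 4 and without the POP10 fish of number 4. It also turned without the PFOS10 fish of number 3 and with library weights. jund, a component of the AP-1 factor, was lower in 4 of 4 numbers, at 7.86 ± 0.31 against 8.07 ± 0.29 (SD, n = 16). limma gave jund an adjusted p of 0.708. Set against control fish, which both differences share, ier2a differed by 1.16 in POP10 and 1.16 in PFOS10, and egr1 by 0.70 and 0.48. Of 10646 genes 2 (0.0188%), ier2a and egr1, passed against control in POP10 and 1 (0.00939%), ier2a, in PFOS10 (limma).

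**Figure D3:**
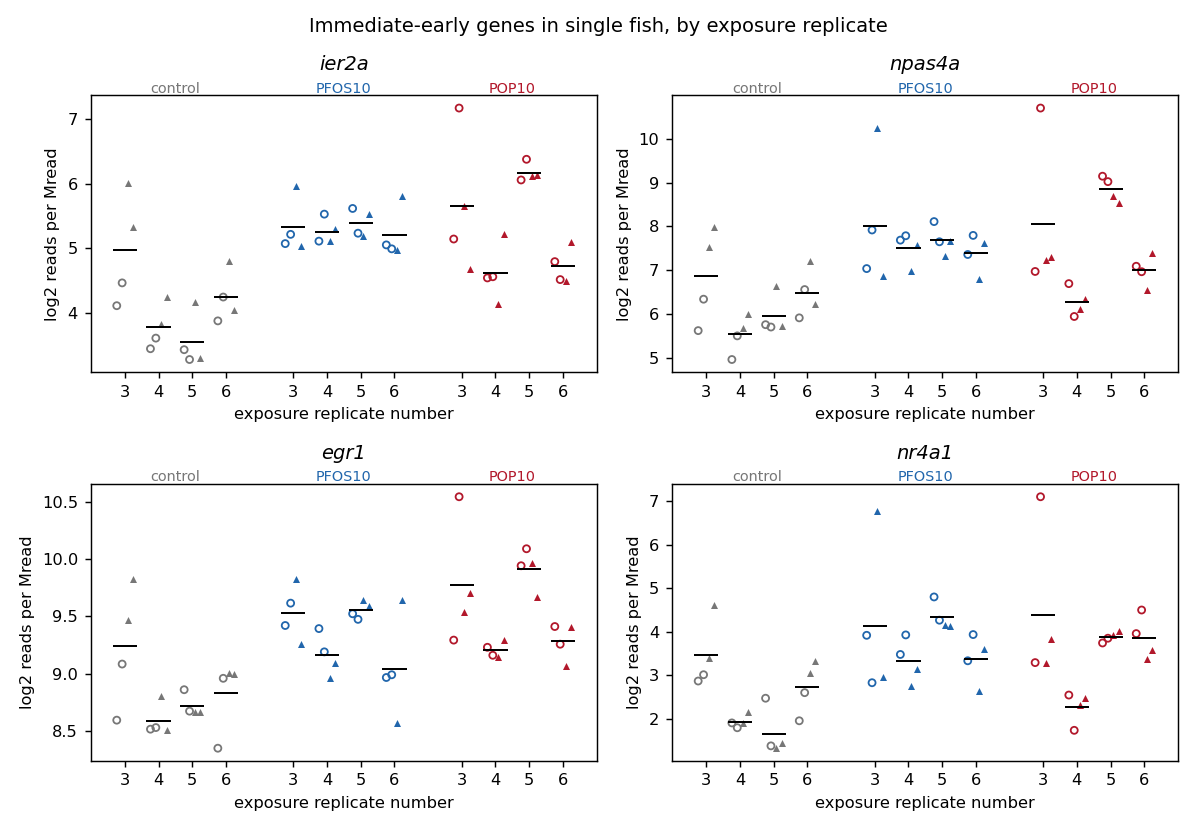
Levels (y axis, log2 RPM) of 4 immediate-early genes in single fish of control, PFOS10 and POP10, by exposure replicate number (x axis). Open circles are females, triangles are males and bars are means of 4 fish. For ier2a the PFOS10 bars run from 5.21 to 5.39 and the POP10 bars from 4.61 to 6.17.

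Ribosomal protein genes, for the protein parts of the cytosolic ribosome, had higher means in POP10 almost throughout. Of 81 tested members 79 were higher, where 36.4% of all genes were, with a median of 0.13 and a range of -0.06 to 0.26, against -0.03 over all genes. At an unadjusted p under 0.05 there were 22, all higher, where 1.72% of all genes were higher at that level, and none passed the adjusted threshold. rps26 stood at 7.82 ± 0.13 against 7.59 ± 0.28 (SD, n = 16), a difference of 0.23 ± 0.08 (SE). rpl26 differed by 0.24 ± 0.09, rpl4 by 0.19 ± 0.08 and rps3 by 0.18 ± 0.07.

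By number the median of the ribosomal protein genes was -0.03, 0.25, 0.08 and 0.20 for 3 to 6, so number 3 did not share the direction. They took 3.85% ± 0.47 of reads in POP10, 3.51% ± 0.57 in PFOS10 and 4.04% ± 0.56 in control (SD, n = 16), with an exact two-sided permutation p of 0.2 over exposure replicates. With the composition component as a covariate 71 of 81 were higher and the median was 0.07. Against the shared control fish the median was -0.06 in POP10 and -0.19 in PFOS10.

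Transcripts of the mitochondrial genome and nuclear genes of oxidative phosphorylation, which together build the respiratory chain, had medians of opposite sign. Of 13 mitochondrial transcripts 12 were higher in POP10, where 36.4% of all genes were, with a median of 0.08. Without number 4 that median was below 0. With the composition covariate 7 of 13 were higher and the median was 0.02. Of 86 nuclear genes 72 were lower, where 63.6% of all genes were, with a median of -0.05. Without number 3 that median was above 0. None had an unadjusted p under 0.05. The SD over fish was 1.62 times as large in POP10 at the median of the nuclear list, and 1.51 times for the myelin list. Mitochondrial transcripts took 11.5% ± 3.07 of reads in POP10 and 10.6% ± 2.29 in PFOS10 (SD, n = 16), with an exact two-sided permutation p of 0.371 over exposure replicates.

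Genes of insulin and growth factor signalling had mostly lower means in POP10. Of 32 tested members 28 were lower, where 63.6% of all genes were, with a median of -0.09. At an unadjusted p under 0.05 there were 4, all lower, where 4.87% of all genes were lower at that level. irs2b, for an adaptor of the insulin receptor, stood at 6.81 ± 0.19 in POP10 and 7.09 ± 0.33 in PFOS10 (SD, n = 16). Its exposure replicates ran from 6.68 to 6.98 in POP10 and from 7.01 to 7.195 in PFOS10 and did not overlap, and control fish were at 6.83 ± 0.30. Its paralog irs2a stood at 5.45 ± 0.82 against 6.01 ± 0.71, the stress-induced growth inhibitor gene sesn1 differed by -0.19 ± 0.07 (SE) and the growth factor receptor gene igf1rb by -0.14 ± 0.06. The adjusted p of each was 0.684 or more (limma). For 1 other member the exposure replicates of POP10 lay all above those of PFOS10. By number the list median was -0.11, -0.14, 0.01 and -0.21 for 3 to 6, and with the composition covariate it was -0.06. Between POP70 and PFOS70 16 members were higher and 16 lower in the mixture, with a median of 0.009.

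Sterol synthesis, the pathway that makes cholesterol for membranes and myelin, had 16 of 18 tested members lower in POP10, where 63.6% of all genes were, with a median of -0.13. fdps, for an enzyme of isoprenoid assembly, differed by -0.26 ± 0.12 (SE), idi1, for the step before it, by -0.33 ± 0.15 and hsd17b7, for a later step, by -0.34 ± 0.15. By number the list median was 0.06, -0.39, -0.01 and -0.26 for 3 to 6. At the high level the same list had 10 of 18 members higher in the mixture and a median of 0.04.

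PPAR and fatty acid oxidation genes, known targets of perfluorinated acids in liver, had 30 of 42 tested members lower, near the 63.6% of all genes, and a median of -0.07. pdk2a, for a kinase that holds back pyruvate dehydrogenase, stood at 4.63 ± 0.31 in POP10 and 5.22 ± 0.66 in PFOS10 (SD, n = 16), with exposure replicates that did not overlap. The receptor gene pparda was not tested, at a mean of 0.443 RPM. Xenobiotic metabolism had 10 of 22 members higher with a median of -0.01, and oxidative stress defence 15 of 31 with a median of -0.00, and both medians changed sign with the normalization.

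Aryl hydrocarbon receptor genes had 8 tested members, 6 lower, where 63.6% of all genes were, with a median of -0.07. That median was -0.01 with the composition covariate and turned sign at a mean of at least 100 RPM. The receptor ahr2 stood at 5.13 ± 0.18 against 5.22 ± 0.27 (SD, n = 16) and tiparp, a target that feeds back on it, at 6.03 ± 0.28 against 6.07 ± 0.29. Their 95% intervals were -0.25 to 0.07 and -0.20 to 0.13. cyp1a, the classical target, was too low to test, with 45 reads over the 16 POP10 and 37 over the 16 PFOS10 libraries, and at 0 reads in 6 of 16 of each. cyp1b1 was also too low, at a mean of 1.57 RPM over the 80 libraries.

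In the stress and steroid axis 13 of 21 tested members were lower, near the 63.6% of all genes, with a median of -0.09. At an unadjusted p under 0.05 there were 4, all lower, where 4.87% of all genes were lower at that level. fkbp5, for a chaperone of the glucocorticoid receptor that glucocorticoids induce, ran from 3.28 to 7.56 with a median of 4.78 in POP10 and from 3.57 to 9.88 with a median of 6.30 in PFOS10. Its exposure replicates stood at 4.35, 4.07, 5.78 and 4.69 in POP10 and at 6.89, 6.06, 5.86 and 6.16 in PFOS10, which did not overlap but nearly touched at number 5. The difference was -1.52 ± 0.65 (SE) with a 95% interval of -2.81 to -0.23 and an adjusted p of 0.684 (limma). Control fish were at 5.50 ± 1.92 (SD, n = 16), and their exposure replicates ran from 4.202 to 7.003, about as wide as both exposures together.

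The mineralocorticoid receptor gene nr3c2 differed by -0.80 ± 0.37 (SE), the urocortin gene ucn3l by -0.59 ± 0.20 and the releasing hormone gene crhb by 0.07 ± 0.09. Of 32 circadian clock genes 19 were lower, where 63.6% of all genes were. The list median was -0.07, a sign that turned with the composition covariate. The clock output gene hlfa differed by -0.75 ± 0.30 and the clock repressor gene nr1d2a by -0.61 ± 0.23, each lower in 4 of 4 numbers. The period gene per1a differed by 0.05 ± 0.49 and nr1d1, a paralog of nr1d2a, by 0.34 ± 0.59, both with wide errors. The main fit has no block for number, so spread between numbers enters these errors. In POP10 nr1d1 ran from 2.77 to 3.55 in number 5 and from 7.34 to 7.41 in number 6. In PFOS10 it ran from 2.63 to 4.03 and from 6.80 to 7.245. The mean of nr1d1 was higher in POP10 in 4 of 4 numbers, though nearly equal at number 5.

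Signalling genes of neurons had small medians, and 63.6% of all genes were lower in POP10. Glutamate and GABA transmission had 37 of 56 members lower with a median of -0.06, and calcium signalling 39 of 50 with a median of -0.08. With the composition component as a covariate these medians were 0.01 and -0.02. The glutamate receptor subunit gene grin2cb stood at 3.03 ± 0.65 against 3.71 ± 0.51 (SD, n = 16), lower in 4 of 4 numbers.

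Of 36 neuropeptide genes 22 were lower, near the 63.6% of all genes, with a median of -0.05 and a range of -2.65 to 0.18. At an unadjusted limma p under 0.05 there were 3, all lower, where 4.87% of all genes were lower at that level. The opioid precursor gene penka stood at 7.01 ± 0.26 in POP10 and 7.32 ± 0.32 in PFOS10 (SD, n = 16), lower in 4 of 4 numbers, with a difference of -0.32 ± 0.10 (SE). Among feeding peptides npy differed by 0.18 ± 0.16 and galn by 0.01 ± 0.28, and agrp was too low to test. Of the monoamine genes, th, for the enzyme that starts dopamine synthesis, differed by -0.31 ± 0.18 and tph2, for that of serotonin, by 0.32 ± 0.35.

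Cell type lists had small medians too, beside 63.6% of all genes lower in POP10 and a median of -0.03 over all genes. Mature neurons had 21 of 31 lower (median -0.03), radial glia 17 of 29 (median -0.02) and myelin 15 of 22 (median -0.07). Microglia had 10 of 17 lower (median -0.09) and endothelium 16 of 20 (median -0.08). The sign of the median turned for radial glia under quantile normalization and for mature neurons with the composition covariate. Without the POP10 fish of number 3 it turned for all 4 of neurons, radial glia, myelin and microglia. Within radial glia atp1a1b, for a sodium pump subunit, stood at 8.59 ± 0.39 against 8.97 ± 0.37 (SD, n = 16), lower in 4 of 4 numbers, while gfap differed by 0.14 ± 0.12 (SE) and fabp7a by -0.08 ± 0.10. The thyroid axis had 7 of 9 lower (median -0.09), and dio2, for the enzyme that activates thyroid hormone, differed by -0.35 ± 0.24.

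Of 12 tested retina and pineal genes, for the light-sensing proteins of photoreceptors, 11 were higher in POP10, where 36.4% of all genes were. The list median was 0.68, and none of the 12 had an unadjusted p under 0.05. The photoreceptor arrestin gene saga ran from -3.07 to 7.70 in POP10 and from -3.04 to 6.68 in PFOS10. The summed level of the list's 41 genes in the table lay between 88.7 and 1804 RPM in POP10 (median 423) and between 101 and 994 RPM in PFOS10 (median 144). By number the list median was 1.38, -0.24, -0.11 and 1.89 for 3 to 6, so the direction came from numbers 3 and 6. rho, the rod opsin, was at 0 reads in 6 of 16 POP10 and 5 of 16 PFOS10 libraries. It reached 39.1 RPM in POP10 and 288 RPM in PFOS10, with 978 and 3113 reads in total.

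Of 6 tested muscle genes 2 were higher and 4 lower in POP10. Lower at an unadjusted p under 0.05 were 2, where 4.87% of all genes were. For 1 gene the exposure replicates of POP10 lay all below those of PFOS10, as for 0.911% of all genes. The list had a median of -0.10 and a range of -1.24 to 0.06. At the low end, the muscle creatine kinase gene ckmb stood at 2.25 ± 1.298 against 3.49 ± 1.87 (SD, n = 16), and the summed muscle list lay between 287 and 468 RPM in POP10 and between 264 and 749 RPM in PFOS10. The part of carried-along tissue in other differences was not tested.

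**Figure D4:**
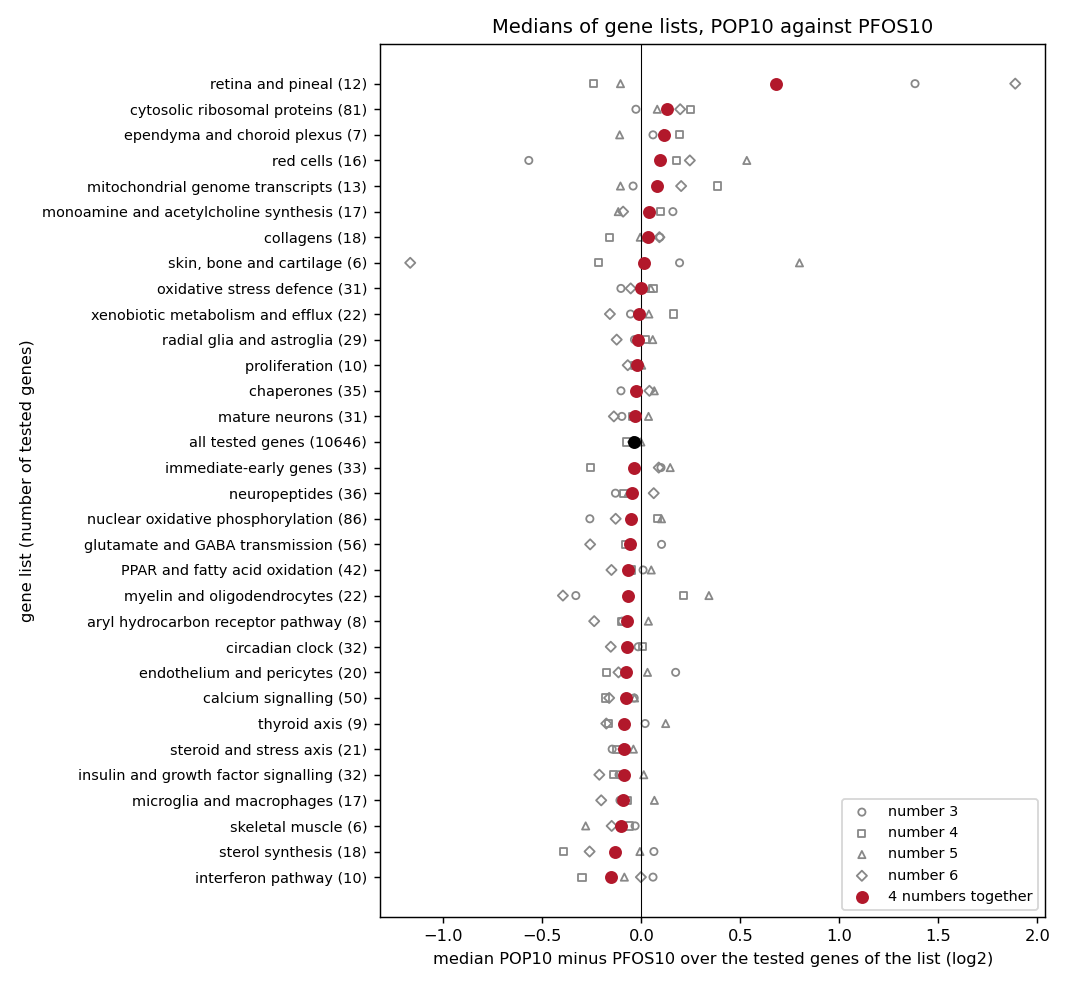
Median difference between POP10 and PFOS10 (x axis, log2) over the tested genes of each list (y axis) for lists of 5 or more tested genes. Grey symbols show each exposure replicate number, red points take the 4 numbers together, and black marks the median over all 10646 genes. Ribosomal protein genes stand at 0.13 and retina and pineal genes at 0.68, the latter with numbers 4 and 5 below 0.

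Across genes the female and male differences of POP10 from PFOS10 correlated with r = 0.349, and 60.7% had the same sign, in fish that shared the exposure replicates. The genes named for a small p in males included olfm1a, for a secreted protein of synapses, at -0.74 in males and -0.17 in females. The smallest adjusted p of the interaction with sex was 0.999 (limma), so no difference between the sexes was detectable with 8 fish of each.

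At the high level POP70 against PFOS70 called 0 of 10646 genes (0%) in limma, with a smallest adjusted p of 0.574. Across genes the low-level and the high-level difference correlated with r = 0.226, in fish that shared only the numbers, and 60.3% had the same sign. Of the 24 leading genes of the low level (12 higher and 12 lower) 8 had the same sign at the high level. There 0 of the 24 had an unadjusted limma p under 0.05, and their differences lay between -0.28 and 0.27. gnl2 differed by -0.04 ± 0.47 (SE), capn7 by 0.03 ± 0.24 and sema4bb by -0.06 ± 0.09 between POP70 and PFOS70.

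Immediate-early genes had larger differences at the high level. There 30 of 33 list members were higher in the mixture, against 13 at the low level, with a median of 0.30, where 40.7% of all genes were higher. The summed list averaged 5146, 2814, 3720 and 3038 RPM for numbers 3 to 6 in POP70. In PFOS70 it averaged 2650, 2760, 2821 and 2611 RPM, so number 4 was nearly equal in both. ier2a differed by 0.93 ± 0.22 (SE) between POP70 and PFOS70, npas4a by 1.32 ± 0.33 and nr4a1 by 1.298 ± 0.35. The low-level less the high-level difference was -0.93 ± 0.31 for ier2a, -1.42 ± 0.47 for npas4a and -1.49 ± 0.50 for nr4a1, each with an adjusted p of 0.815 (limma). Over all genes the test of a difference between the levels called 0 of 10646 (0%) in limma, with 486 (4.57%) at an unadjusted p under 0.05 and a smallest adjusted p of 0.141. Ribosomal protein genes had higher means in the mixture at both levels, with 76 of 81 higher in POP70 than in PFOS70 and a median of 0.08.

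**Figure D5:**
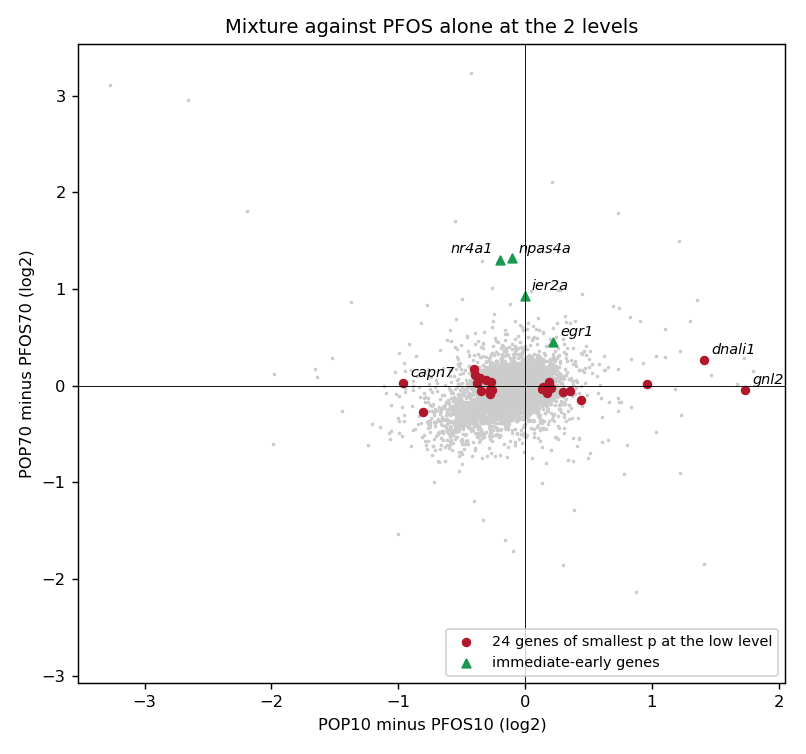
Difference of the mixture from PFOS alone at the low level (x axis, POP10 minus PFOS10, log2) and at the high level (y axis, POP70 minus PFOS70, log2). Each grey point is 1 of 10646 genes. Red points are the 24 leading genes of the low level (12 higher and 12 lower in POP10), and green triangles are 4 immediate-early genes. The red points stay between -0.28 and 0.27 on the y axis, while ier2a, npas4a and nr4a1 lie between 0.93 and 1.32.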

How the data were processed

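RNA-seq libraries (poly-A, NEBNext Ultra, paired-end, per the labels' protocols) came from 80 whole brains. Tools named in the submitters' processing notes are STAR 2.5.4b, Trim Galore 0.4.5, R 3.5.0 and DESeq2, and the build is GRCz11. The authors deposited log2 normalized expression per gene and fish, and no raw counts were used here. On a linear scale the deposited values were whole multiples of what 1 read is worth in a library (100% within 0.02 of a whole read, under 5000 reads), and 0 reads stood as 0.9 read. Levels are called RPM, though library sums were 1.27 to 1.42 times 1000000 and how the factor was set is not given in the sources used here.

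The 10646 genes with a mean of at least 10 RPM were fitted with limma 3.58.1 (R 4.3.3, variance trend, 10 groups of condition and sex), and the difference is the mean of the female and male differences. P-values were adjusted by Benjamini-Hochberg over all 10646 genes. The fit was tested on simulated data. The gene name table held 22752 of the 22925 identifiers.

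Exposure replicate numbers pair the samples, since fish of 1 number have 1 age in the labels, whatever their condition. Deviations of same-numbered POP10 and PFOS10 samples correlated at 0.631, 0.279, 0.0976 and 0.238 for numbers 3 to 6. Different numbers correlated at a median of -0.145 and up to 0.359, and the own number was best in 2 of 4, so the pairing rests on age, not on these values. Members and gene lists were chosen with earlier results of these data known. Named genes are the 12 higher and 12 lower of smallest p that point 1 way in females and males, up to 5 each way for single sexes and interactions, up to 4 per list, and a panel of 25 genes. Clone names were left out, and cyp19a1b was not analysed here. Alternatives were the number block, the correlation between fish, other filters, normalizations, weights and covariates, and each replicate left out.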

Additional observations from a re-analysis of the deposited data

Results flagged for a closer look

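In groups of 4 exposure replicates, the highest or lowest mean was checked for standing far from the others by Dixon's criterion. Of 66 groups 3 stood out, where chance marks about 5% of groups. For sema4bb, number 3 of POP10 had a mean of 4.154, against 4.361 to 4.385 in the other numbers, and number 3 of PFOS10 a mean of 4.567, against 4.691 to 4.714. Both exposures were thus lowest at number 3. The composition component of POP10 number 3 was -0.6804, against 0.1333 to 0.2677 in the other numbers.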

How the results depend on the processing

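The count of 0 genes over both sexes held under most of the 24 alternatives. With library weights 2 genes passed in limma, taf2 at -0.47 and pogzb at -0.30, each with an adjusted p of 0.0352. Leaving out replicates gave 0 to 1 genes, and the 1 was pogzb without number 3, at -0.36 and an adjusted p of 0.0271. The range of the smallest adjusted p over the alternatives was from 0.0271 to 1. The cause was not tested. For the difference between the levels, 1 gene with a clone name, si:dkey-117n7.5, passed with library weights (-1.34, limma adjusted p 0.00124) and with the composition covariate (-1.19, adjusted p 0.0131). With the replicate block, which pairs the numbers, 0 genes passed, 1029 had an unadjusted p under 0.05, and the smallest adjusted p was 0.326 (limma). It changed no call. With the correlation between fish 136 genes had an unadjusted p under 0.05, and with library weights 1173. Without a filter 1399 of 22996 genes did, and at a mean of at least 100 RPM 215 of 2810. Leaving out a replicate moved that count from 344, without number 6, to 1544, without PFOS10 number 3. Scaling to reads per Mread recovered, chosen after seeing the data, gave 696. Of the 24 leading genes 0 changed sign in 559 refits, which reuse most of the same fish. Since small p and direction chose these genes, this is a description. Of all 194 named genes 29 changed sign under an alternative. At 10 RPM a gene rests on 71.2 to 120 reads, so depth limits genes under that level most.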

Other observations

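The interaction with sex named a few genes that the comparison over both sexes did not, none past the threshold (limma, smallest adjusted p 0.999). naalad2, for a peptidase of the family that cleaves N-acetylaspartylglutamate, differed between POP10 and PFOS10 by -0.80 in females and 1.19 in males. abcf2b, of the ABC protein family, differed by 0.39 in females and -0.62 in males.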
